A study of Mus musculus with 24 samples.

Results

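The genes described here are 10 negative-feedback genes of the MAP kinase pathways in SIM-A9 cells, an immortalised mouse microglial line: the dual-specificity phosphatases Dusp1, Dusp2, Dusp4, Dusp5, Dusp6, Dusp10 and Dusp16, the Sprouty genes Spry1 and Spry2, and the Sprouty-related gene Spred1. They were chosen by symbol, after the Ensembl identifiers of the deposited table had been matched to GENCODE mouse gene names. Earlier results of these data were known when they were chosen. All 10 were found among its 54838 gene identifiers. Of these, 9 passed the filter on low counts, as 13116 genes did in all, and the 9 passed with counts in every group. Spry1 did not pass: it held between 1 and 10 counts per library and is given by its level only.

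Poly-A RNA was sequenced from 24 libraries in 8 groups of 3. Per the labels, cells were moved to 270 µL of serum-free medium, then given 30 µL of a 10-fold concentrated agent and lysed 2 h later. The groups were control cells, the bacterial endotoxin LPS as an inflammatory positive control, single-walled carbon nanotubes labelled (GT)6 SWCNT and carboxylated nanotubes (COOH SWCNT). The others were dyes named DiBASC2 and Di-2-ANEPEQ, the calcium indicator Fura-2, and AAV, an adeno-associated virus. The control libraries carry the same volumes of 270 µL and 30 µL, and no vehicle is named for them. The (GT)6 name stands for a short GT-repeat DNA wrapped around the tube. All groups, the control included, are the same line in the same medium at 1 time point. The labels give no concentration, no vehicle and no virus dose, so agents are compared as they were given and not at matched doses. The labels do not say whether the 3 libraries of a group came from separate cultures, so p-values measure the spread between these libraries, which may be technical.

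MAP kinases are switched on by phosphorylation of a threonine and a tyrosine, and the dual-specificity phosphatases of the MKP family switch them off by removing both phosphates. Dusp1, Dusp2, Dusp4 and Dusp5 encode nuclear, rapidly induced enzymes. Dusp6 encodes a cytoplasmic enzyme selective for ERK, and Dusp10 and Dusp16 encode enzymes that prefer JNK and p38. Sprouty and SPRED proteins act upstream, where they restrain the activation of Ras and Raf. In macrophages and microglia, Toll-like receptor ligands such as LPS activate ERK, JNK and p38, and Dusp1 is a known brake on the cytokine output of that response.

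Promoter sequences are shown for the genes on which the results turn: Dusp1, Dusp2 and Dusp5, which moved up, and Dusp6, which moved down. Each is the 250 bases before the RefSeq start on GRCm38.p6, written 5′ to 3′ on the gene's strand. Capitals mark matches to the cyclic AMP response element (CRE, TGACGTCA), its shorter core TGACG, the E-box CACGTG and the serum response factor element known as the CArG box. The windows are chr17:26508473-26508722 (minus strand) for Dusp1, chr2:127335909-127336158 (plus strand) for Dusp2, chr19:53528895-53529144 (plus strand) for Dusp5 and chr10:99262981-99263230 (plus strand) for Dusp6.
Dusp1: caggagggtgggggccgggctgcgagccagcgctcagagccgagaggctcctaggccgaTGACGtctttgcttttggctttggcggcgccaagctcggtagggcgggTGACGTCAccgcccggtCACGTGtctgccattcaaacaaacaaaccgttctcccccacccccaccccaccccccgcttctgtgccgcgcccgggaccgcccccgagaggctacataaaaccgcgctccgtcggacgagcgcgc
Dusp2: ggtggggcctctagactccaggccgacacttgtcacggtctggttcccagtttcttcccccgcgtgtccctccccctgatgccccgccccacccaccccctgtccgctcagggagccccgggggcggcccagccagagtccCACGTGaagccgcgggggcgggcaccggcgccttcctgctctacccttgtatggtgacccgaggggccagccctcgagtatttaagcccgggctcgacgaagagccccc
Dusp5: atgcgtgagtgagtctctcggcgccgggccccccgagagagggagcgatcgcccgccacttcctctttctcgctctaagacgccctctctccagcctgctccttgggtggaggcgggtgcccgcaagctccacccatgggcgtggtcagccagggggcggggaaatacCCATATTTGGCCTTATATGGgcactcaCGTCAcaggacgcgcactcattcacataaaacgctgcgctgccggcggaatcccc
Dusp6: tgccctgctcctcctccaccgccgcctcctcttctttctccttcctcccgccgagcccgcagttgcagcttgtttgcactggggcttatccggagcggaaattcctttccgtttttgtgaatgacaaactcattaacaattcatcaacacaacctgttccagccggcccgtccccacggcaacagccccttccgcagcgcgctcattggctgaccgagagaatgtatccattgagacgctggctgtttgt
The Dusp1 window held a complete CRE, TGACGTCA, 143 to 136 bases before the start, another TGACG core at 191 to 187 and an E-box at 126 to 121. The Dusp2 window held an E-box at 109 to 104. The Dusp5 window held adjoining CArG boxes, CCATATTTGG at 82 to 73 and CCTTATATGG at 72 to 63, and a core on the other strand, CGTCA, at 55 to 51. The search covered both strands and also the AP-1 site TGANTCA and the NF-kB site, neither of which matched in any member's window. The core overlaps every complete CRE by construction. Among 32851 RefSeq mouse promoter windows of the same length, 1.55% held a CRE, 17.8% the core, 6.02% the E-box, 1.47% a CArG box, 6.75% the AP-1 site and 3.90% the NF-kB site. Of the other members with a window, Dusp16 held a core at 70 to 66, and Dusp6, Dusp10, Spry1, Spry2 and Spred1 held none of these letters. These matches describe letters in a window and are no evidence of binding.

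Total counts per library lay between 17364272 and 29259221. All 14 microglia and macrophage markers on the list used were above 1 CPM (counts scaled to library size, after TMM scaling), with a summed level of 2687 to 2982 CPM over the 24 libraries. P2ry12, at 2.28 CPM, and Tmem119, at 3.79 CPM, which mark resting microglia in the brain, were low beside Csf1r, at 516 CPM, and Cd68, at 848 CPM. Other markers on the list were low too: Aif1 at 4.09 CPM, C1qa at 9.50 CPM and Cx3cr1 at 13.5 CPM. Summed astrocyte markers reached at most 0.780 CPM, neuronal markers 0.200 CPM (Syt1, Stmn2 and Nefl were at 0) and fibroblast and pericyte markers 0.435 CPM (Dcn was at 0). The oligodendrocyte list summed to 3.51 to 5.80 CPM, nearly all from Mbp, with Mog at 0. In bulk RNA, fewer cells carrying a transcript and less of it per cell cannot be told apart. Libraries of a group also carry consecutive index numbers in the labels, so library order and group cannot be told apart.

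In control cells the members spanned a wide range of abundance. On a scale corrected for transcript length (RPKM, the CPM value divided by the kilobases of annotated exon), the control level was 24.4 ± 0.324 for Dusp4 (SD, n = 3 here and below), 22.3 ± 0.143 for Spred1, 15.3 ± 0.552 for Dusp5 and 12.9 ± 0.773 for Dusp2. Spry2 stood at 6.94 ± 0.312, Dusp16 at 5.84 ± 0.244, Dusp6 at 3.27 ± 0.392 and Dusp1 at 2.88 ± 0.447 RPKM. Dusp10, at 0.412 ± 0.0859, and Spry1, at 0.0357 ± 0.0328 RPKM, were the scarce ones. Dusp4 and Spred1, the most abundant in control cells, moved less than Dusp5 and Dusp2, the next most abundant. Between the lowest and the highest group mean, Dusp2 spanned 3.19 log2 units, Dusp6 2.20, Dusp5 1.96 and Dusp1 1.95. In contrast, Dusp4 spanned 0.99 and Spred1 0.48.

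**Figure D1:**
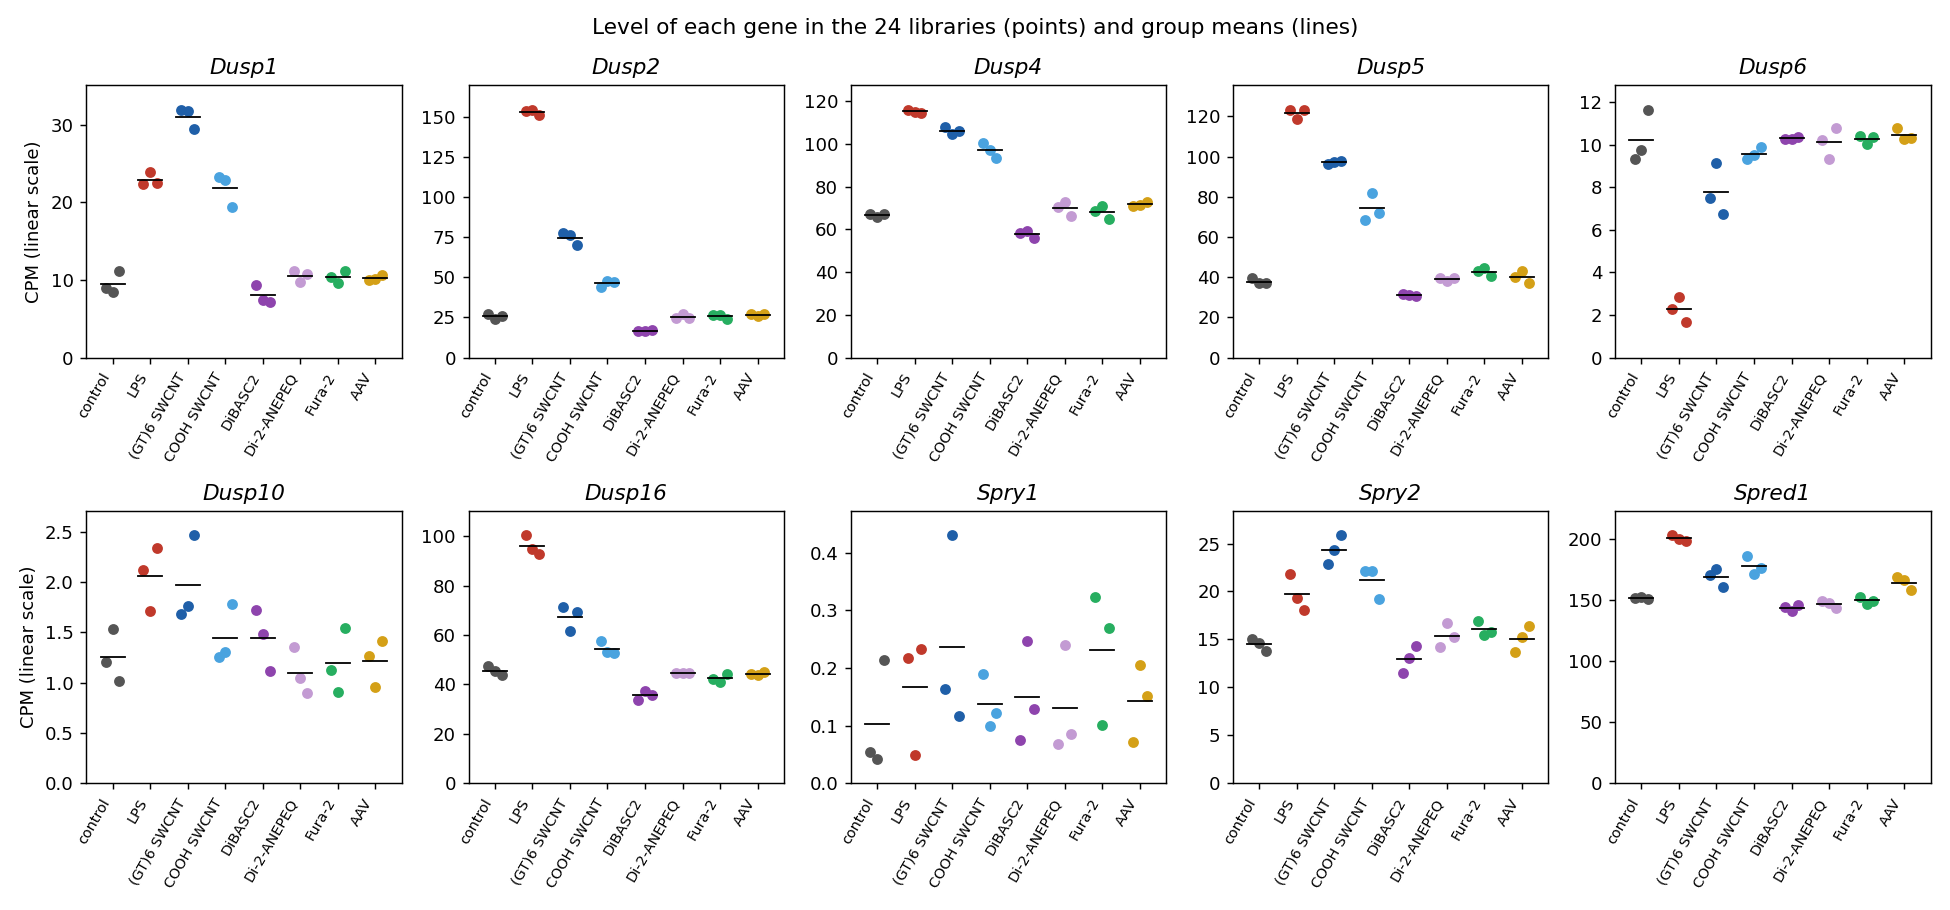
Level of each of the 10 genes in each of the 24 libraries, in CPM on a linear axis from 0, by group, with 1 panel per gene; points are libraries and lines are group means. Dusp2, Dusp4, Dusp5 and Dusp16 step down from LPS through (GT)6 SWCNT and COOH SWCNT to control, Dusp1 and Spry2 are highest in (GT)6 SWCNT, and Dusp6 is lowest in LPS.

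Most of the family was higher 2 h after LPS or either nanotube, and part of it was lower after the dye DiBASC2. A gene was called when its adjusted p, from edgeR's quasi-likelihood test with Benjamini-Hochberg adjustment over all 13116 genes, was under 0.05. In LPS, 8 of the 9 tested members were called higher, against 13.8% of all genes tested, and Dusp6 was called lower, against 14.5%. In (GT)6 SWCNT, 7 were called higher (9.90% of all genes) and Dusp6 lower (10.5%). In COOH SWCNT, 7 were called higher (9.39%). In DiBASC2, 4 were called lower (3.64%). The median log2 fold change of the 9 genes was 0.79 in LPS and 0.67 in (GT)6 SWCNT, where the medians of all genes were −0.0084 and −0.017. It was 0.54 in COOH SWCNT and −0.21 in DiBASC2, against −0.0016 and −0.0018 over all genes. These comparisons share the 3 control libraries. The members were chosen with earlier results of these data known, so these counts and medians describe them and test nothing.

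**Figure D2:**
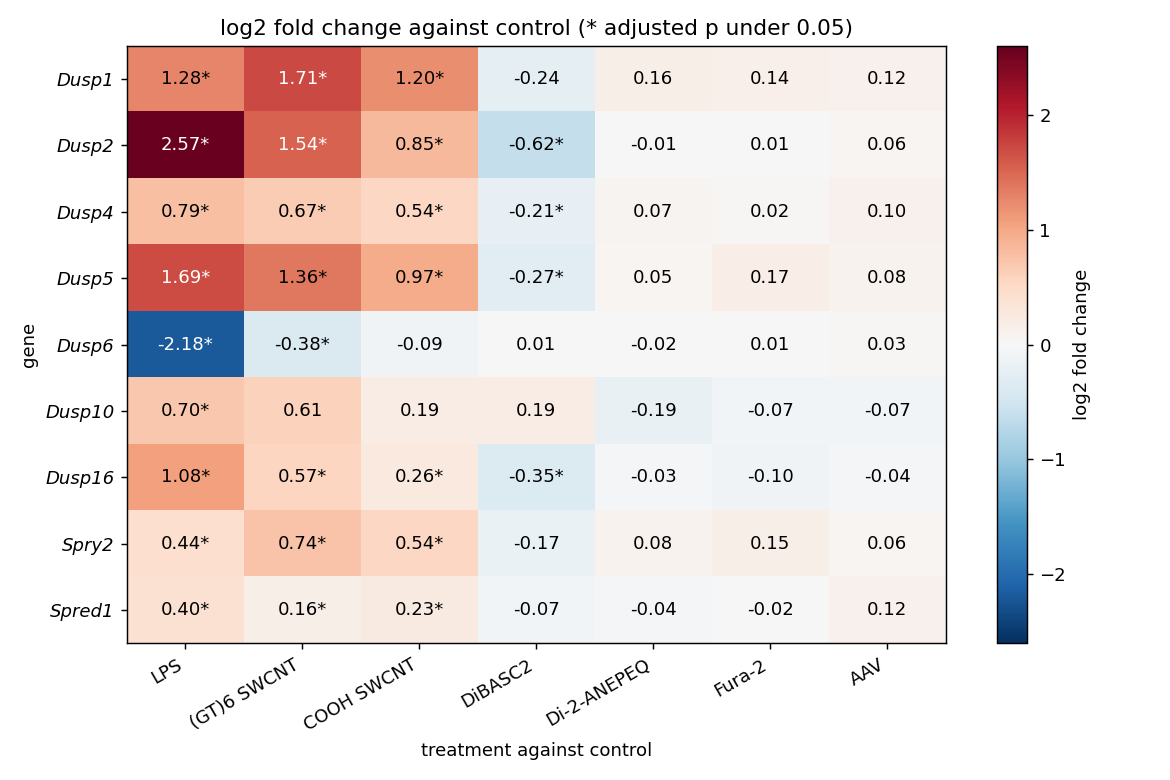
Log2 fold change of the 9 tested genes against control in each of the 7 treatments, as a colour scale; an asterisk marks an adjusted p under 0.05. The 3 left columns, LPS and both nanotubes, are higher for most genes with Dusp6 as the exception, and DiBASC2 is lower for Dusp2, Dusp4, Dusp5 and Dusp16.

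Among the nuclear, inducible phosphatases, Dusp2 had the largest change in LPS and Dusp1 in both nanotube groups. Dusp2 (ENSMUSG00000027368.6, chromosome 2, 127336159 to 127338376) was first known as PAC-1, a phosphatase of activated immune cells. It stood at 27.3, 24.2 and 25.8 CPM in the control libraries and at 154, 154 and 151 CPM in LPS. It stood at 77.6, 76.1 and 70.0 CPM in (GT)6 SWCNT and at 44.1, 47.9 and 47.1 CPM in COOH SWCNT. The libraries of these 4 groups did not overlap, with LPS highest and control lowest. The change against control was 5.95-fold in LPS (log2 fold change 2.57 ± 0.05, SE; adjusted p 6.94e-31) and 2.91-fold in (GT)6 SWCNT (1.54 ± 0.06; adjusted p 1.54e-22). In COOH SWCNT the log2 fold change was 0.85 ± 0.06 (adjusted p 4.01e-14).

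Dusp5 (ENSMUSG00000034765.6, chromosome 19, 53529109 to 53542431), a nuclear phosphatase that acts on and anchors ERK, followed the same order. Its libraries read 39.5, 36.9 and 37.3 CPM in control, 123, 119 and 123 CPM in LPS, 96.4, 97.4 and 98.1 CPM in (GT)6 SWCNT, and 68.6, 82.1 and 72.0 CPM in COOH SWCNT. No library of 1 of these groups overlapped another group, and COOH SWCNT replicate 2 was the highest of its own 3. The log2 fold change against control was 1.69 ± 0.05 in LPS (adjusted p 6.99e-25), 1.36 ± 0.06 in (GT)6 SWCNT (3.81e-21) and 0.97 ± 0.06 in COOH SWCNT (7.27e-16). An annotated antisense gene, AC137853.2, overlaps 547 bases of the Dusp5 exons, and whether counting used strand is not given in the sources used here, so some reads could come from either.

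Dusp1 (ENSMUSG00000024190.6, chromosome 17, 26505590 to 26562128), which encodes MKP-1 and acts mainly on p38 and JNK, had another order. It stood at 8.96, 8.43 and 11.2 CPM in control, 22.4, 23.9 and 22.5 CPM in LPS, 31.9, 31.8 and 29.4 CPM in (GT)6 SWCNT and 23.3, 22.8 and 19.4 CPM in COOH SWCNT. The (GT)6 SWCNT libraries lay above all others, and those of LPS and COOH SWCNT overlapped each other. Dusp1 rose 3.28-fold in (GT)6 SWCNT (log2 fold change 1.71 ± 0.09; adjusted p 2.14e-17), 2.42-fold in LPS (1.28 ± 0.10; adjusted p 1.3e-13) and by 1.20 ± 0.10 on the log2 scale in COOH SWCNT (adjusted p 3.62e-12).

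Dusp4 (ENSMUSG00000031530.6, chromosome 8, 34807297 to 34819894), which encodes the nuclear MKP-2, started from the highest level per length and changed less. Its control libraries read 67.1, 65.7 and 67.4 CPM. They read 116, 115 and 115 CPM in LPS, 108, 105 and 106 CPM in (GT)6 SWCNT and 101, 97.2 and 93.4 CPM in COOH SWCNT. The order of Dusp2 and Dusp5 was kept, without overlap between these 4 groups. The log2 fold change was 0.79 ± 0.04 in LPS (adjusted p 4.35e-18), 0.67 ± 0.04 in (GT)6 SWCNT (1.6e-15) and 0.54 ± 0.04 in COOH SWCNT (1.9e-12).

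Dusp6 (ENSMUSG00000019960.8, chromosome 10, 99263231 to 99267489), the cytoplasmic ERK phosphatase also called MKP-3, went the other way. It stood at 9.34, 9.75 and 11.6 CPM in control and at 2.28, 2.83 and 1.68 CPM in LPS, where its libraries held 36 to 58 counts. The (GT)6 SWCNT libraries stood at 7.47, 9.16 and 6.74 CPM and the COOH SWCNT libraries at 9.33, 9.52 and 9.89 CPM. Every LPS library lay far below all others, the (GT)6 SWCNT libraries lay just under those of the control, and the COOH SWCNT and control libraries overlapped. Dusp6 was 4.52-fold lower in LPS (log2 fold change −2.18 ± 0.14; adjusted p 1.04e-15), while only 1.40% of all genes were called lower there with a log2 fold change of at most −1. In (GT)6 SWCNT it fell by 0.38 ± 0.11 on the log2 scale (adjusted p 0.00993). That call was lost without control replicate 3 (−0.27, adjusted p 0.137), (GT)6 SWCNT replicate 1 (0.0709) or (GT)6 SWCNT replicate 3 (0.0781). In COOH SWCNT the log2 difference of Dusp6 was −0.09, with a 95% interval from −0.31 to 0.12 (adjusted p 0.594).

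Dusp7, another cytoplasmic ERK-selective phosphatase from the list of further family genes, was also lower in LPS. It went from 60.8 ± 0.169 CPM in control to 22.1 ± 0.854 CPM (SD; log2 fold change −1.46 ± 0.06, adjusted p 4.89e-22). Dusp9, the remaining gene of that class, did not pass the filter on low counts. Both tested genes of this class, Dusp6 and Dusp7, were called lower in LPS, where all 4 nuclear genes were called higher. The class was singled out after the values were seen, so this count describes the genes and tests nothing. In (GT)6 SWCNT, Dusp7 was not called (−0.06, adjusted p 0.453), and in COOH SWCNT it was called higher (0.15 ± 0.05, adjusted p 0.0288).

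Of the members that prefer JNK and p38, Dusp16 was called higher in LPS and both nanotubes, and Dusp10 was called higher in LPS. The class that prefers JNK and p38 was also singled out after the values were seen. Dusp16 (ENSMUSG00000030203.17, chromosome 6, 134715468 to 134792625), which encodes MKP-7, stood at 47.5, 45.4 and 43.7 CPM in control, 100.3, 94.8 and 92.7 CPM in LPS, 71.3, 61.7 and 69.3 CPM in (GT)6 SWCNT and 57.7, 53.1 and 52.8 CPM in COOH SWCNT. The groups did not overlap and kept the order of Dusp2, Dusp4 and Dusp5. Dusp16 rose 2.11-fold in LPS (log2 fold change 1.08 ± 0.05; adjusted p 2.95e-19), by 0.57 ± 0.05 in (GT)6 SWCNT (1.04e-10) and by 0.26 ± 0.05 in COOH SWCNT (0.000432). Dusp8, the third gene of this class and not a member, rose from 3.69 ± 0.521 CPM to 18.4 ± 2.28 CPM in LPS (log2 fold change 2.33 ± 0.12; adjusted p 7.88e-19). Dusp8 also rose in (GT)6 SWCNT, to 12.9 ± 0.732 CPM (1.82 ± 0.12; adjusted p 1.11e-14), and in COOH SWCNT, to 7.52 ± 0.740 CPM (1.04 ± 0.13; adjusted p 1.45e-07).

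Dusp10 (ENSMUSG00000039384.8, chromosome 1, 184013302 to 184075636), which encodes MKP-5, was scarce and imprecisely measured. It stood at 1.21, 1.53 and 1.01 CPM in control and at 2.12, 1.71 and 2.34 CPM in LPS. The LPS libraries lay above the control libraries by a narrow margin, and the call in LPS (log2 fold change 0.70 ± 0.25; adjusted p 0.0371) did not survive leaving out 1 library in 4 of 6 cases. It was lost without control replicate 1 (adjusted p 0.0844), control replicate 3 (0.144), LPS replicate 1 (0.0734) and LPS replicate 3 (0.141). In (GT)6 SWCNT, at 1.68, 1.76 and 2.46 CPM, Dusp10 was not called (0.61, 95% interval 0.09 to 1.12; adjusted p 0.093). In COOH SWCNT, at 1.25, 1.30 and 1.78 CPM, it was not called either (0.19, 95% interval −0.34 to 0.73; adjusted p 0.678).

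Of the upstream inhibitors, Spry2 and Spred1 were called higher in LPS and both nanotubes, and Spry1 was not tested. Spry2 (ENSMUSG00000022114.5, chromosome 14, 105891947 to 105896819), which blocks growth-factor signalling to Ras and Raf, stood at 15.1, 14.6 and 13.8 CPM in control, 21.8, 19.3 and 18.1 CPM in LPS, 22.9, 24.3 and 25.8 CPM in (GT)6 SWCNT and 22.2, 22.1 and 19.2 CPM in COOH SWCNT. It was highest in (GT)6 SWCNT, as Dusp1 was, and the COOH SWCNT and LPS libraries overlapped. Its log2 fold change was 0.74 ± 0.09 in (GT)6 SWCNT (adjusted p 1.78e-08), 0.54 ± 0.09 in COOH SWCNT (1.35e-05) and 0.44 ± 0.09 in LPS (0.000181).

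Spred1 (ENSMUSG00000027351.14, chromosome 2, 117121374 to 117182279), which brings the Ras inactivator neurofibromin to the membrane, had the smallest range of the tested members. Its libraries read 151, 152 and 150.3 CPM in control, 203, 200.2 and 198 CPM in LPS, 171, 175 and 160.1 CPM in (GT)6 SWCNT and 185, 171 and 176 CPM in COOH SWCNT. LPS was highest, and both nanotube groups overlapped each other above the control. The log2 fold change was 0.40 ± 0.04 in LPS (adjusted p 4.38e-11), 0.23 ± 0.04 in COOH SWCNT (1.64e-05) and 0.16 ± 0.04 in (GT)6 SWCNT (0.00207). Spry1 (ENSMUSG00000037211.12, chromosome 3, 37639947 to 37644598) stayed between 0.0426 and 0.430 CPM over the 24 libraries, too low for a comparison. It also shares 710 exon bases with Gm42922, a locus annotated on the other strand.

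The treatments were next compared with each other directly, to place the nanotubes beside the positive control and beside each other. Against LPS, (GT)6 SWCNT had 3 members called higher (9.63% of all genes) and 5 lower (11.9%). Dusp2 was lower by 1.03 ± 0.05 on the log2 scale (log2 fold change −1.03; adjusted p 6.83e-20), Dusp16 was at −0.51 ± 0.05 (2.17e-10), Dusp5 at −0.33 ± 0.05 (2.77e-06) and Spred1 at −0.25 ± 0.04 (2.98e-06). Dusp1, in contrast, was higher in (GT)6 SWCNT than in LPS by 0.44 ± 0.08 (adjusted p 7.4e-05), Spry2 by 0.30 ± 0.08 (0.00725) and Dusp6 by 1.80 ± 0.14 (9.55e-13). The ranking of these agents therefore differed between members. The Spry2 call was lost without LPS replicate 3 (0.24, adjusted p 0.0616). Dusp4 stood at −0.12 ± 0.04 (adjusted p 0.0333), and leaving out any 1 of the 6 libraries ended that call, with adjusted p from 0.057 to 0.123.

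Against LPS, COOH SWCNT had Dusp6 called higher (2.08 ± 0.14, adjusted p 3.95e-15; 18.1% of all genes higher) and 5 members called lower (19.7%). These were Dusp2 at −1.72 ± 0.05 (1.94e-26), Dusp16 at −0.81 ± 0.05 (6.91e-16), Dusp5 at −0.72 ± 0.05 (1.84e-14), Dusp4 at −0.25 ± 0.04 (5.45e-06) and Spred1 at −0.17 ± 0.04 (0.000341). Dusp1 was not called between them, with a log2 difference of −0.07 and a 95% interval from −0.24 to 0.10 (adjusted p 0.554). For Spry2 the difference was 0.10, with an interval from −0.07 to 0.27 (adjusted p 0.37).

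The 2 nanotubes differed in 5 members, all called higher in (GT)6 SWCNT than in COOH SWCNT (11.9% of all genes). The log2 differences were 0.69 ± 0.05 for Dusp2 (adjusted p 2.93e-12), 0.51 ± 0.08 for Dusp1 (1.36e-05), 0.39 ± 0.05 for Dusp5 (3.96e-07), 0.30 ± 0.05 for Dusp16 (4.03e-05) and 0.13 ± 0.04 for Dusp4 (0.0183). These were the nuclear phosphatases and Dusp16, but which members were called depended in part on the processing. The Dusp4 call was lost without (GT)6 SWCNT replicate 1 (0.0684) or COOH SWCNT replicate 3 (0.097). It was also lost with no filter on low counts (adjusted p 0.0622) and at a threshold of 0.01. Dusp6 was not called, at −0.29 (95% interval −0.51 to −0.07, adjusted p 0.0537), and it was called without (GT)6 SWCNT replicate 2 (−0.42, adjusted p 0.0124). Upper-quartile factors (adjusted p 0.0361) and a filter at a mean of 50 counts (0.0446) also gave a call for Dusp6. Spry2, at 0.20 (interval 0.03 to 0.36, adjusted p 0.0787), and Spred1, at −0.07 (interval −0.15 to 0.0023, adjusted p 0.166), were not called. With only these groups in the fit, Spry2 was called (adjusted p 0.0496).

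**Figure D3:**
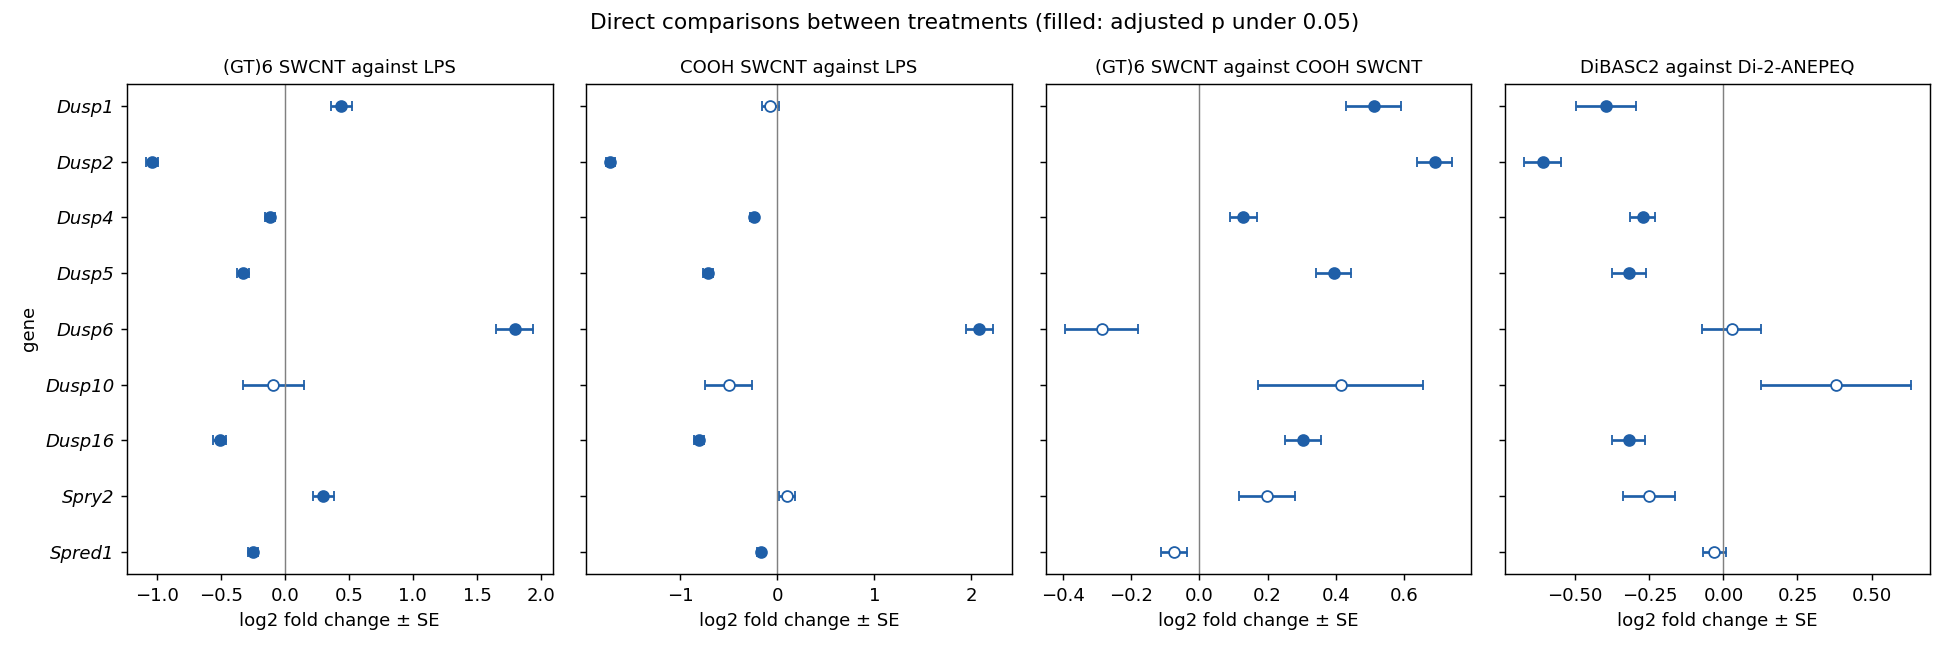
Log2 fold change between treatments for the 9 tested genes in 4 direct comparisons; points are estimates, bars are ± 1 SE, and filled points have an adjusted p under 0.05. Dusp6 lies to the right in both comparisons of a nanotube with LPS, at 1.80 and 2.08, and Dusp1 lies to the right for (GT)6 SWCNT against LPS at 0.44 and near 0 for COOH SWCNT against LPS.

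DiBASC2 lowered 3 of the nuclear phosphatases and Dusp16. Dusp2 stood at 16.3, 16.9 and 16.9 CPM, below every library of the other 7 groups, and fell by 0.62 ± 0.06 on the log2 scale against control (adjusted p 1.55e-08). Dusp16, at 33.8, 37.5 and 35.9 CPM, fell by 0.35 ± 0.06 (adjusted p 6.76e-05). Dusp5, at 31.9, 31.4 and 30.7 CPM, fell by 0.27 ± 0.06 (0.00354), and Dusp4, at 58.5, 59.0 and 55.9 CPM, fell by 0.21 ± 0.04 (0.00211). For these 4 genes the DiBASC2 libraries were the lowest of all groups, without overlap. The same held for 422 of the 13116 genes tested (3.22%). Dusp1, at 9.41, 7.46 and 7.19 CPM, overlapped the control and was not called (−0.24, 95% interval −0.46 to −0.02; adjusted p 0.224). Dusp6, at 10.3, 10.3 and 10.4 CPM, differed from control by 0.01, with an interval from −0.20 to 0.22 (adjusted p 0.974). Spry2 (−0.17, interval −0.35 to 0.02) and Spred1 (−0.07, interval −0.15 to 0.0026) were not called, at adjusted p 0.34 and 0.288.

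Di-2-ANEPEQ, the other dye, was compared with DiBASC2 directly. In DiBASC2, 5 members were called lower than in Di-2-ANEPEQ (5.48% of all genes): Dusp2 at −0.61 ± 0.06 (adjusted p 1.57e-08), Dusp1 at −0.40 ± 0.10 (0.0106), Dusp16 at −0.32 ± 0.05 (0.000119), Dusp5 at −0.32 ± 0.06 (0.00029) and Dusp4 at −0.27 ± 0.04 (3.32e-05). Dusp1 stood at 11.1, 9.78 and 10.8 CPM in Di-2-ANEPEQ, and its call was lost without DiBASC2 replicate 2 (0.0752), DiBASC2 replicate 3 (0.0559) or Di-2-ANEPEQ replicate 1 (0.0818). Spry2 was not called (−0.25, 95% interval −0.43 to −0.07; adjusted p 0.0691), and it was called without DiBASC2 replicate 3 (−0.32, adjusted p 0.0297). Dusp6 differed by 0.03, with an interval from −0.17 to 0.23.

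Against control, Di-2-ANEPEQ had 0 members called (3.08% of all genes called in either direction), 0 at an unadjusted p under 0.05 and 0 by DESeq2. The members' log2 fold changes lay between −0.19 and 0.16, with a smallest adjusted p of 0.471. Fura-2 had 0 members called by edgeR (0.252% of all genes) and 0 by DESeq2, with Dusp5 alone under an unadjusted p of 0.05. Dusp5 stood at 42.98, 44.6 and 40.5 CPM there, above all 3 control libraries, with a log2 fold change of 0.17 (95% interval 0.05 to 0.29, adjusted p 0.241). AAV had 0 members called by edgeR (5.00% of all genes), with 2 at an unadjusted p under 0.05, and 1 called by DESeq2. That gene was Spred1, at 168, 166 and 158 CPM, above all control libraries by a log2 fold change of 0.12 (95% interval 0.04 to 0.19, adjusted p 0.0621 by edgeR and 0.024 by DESeq2). Dusp4 was the other gene under an unadjusted p of 0.05 in AAV, at 70.9 to 72.6 CPM, above all control libraries. Its log2 fold change was 0.10 (95% interval 0.02 to 0.19, adjusted p 0.15 by edgeR). Dusp2 in AAV, at 27.3, 25.9 and 27.02 CPM, had an interval from −0.06 to 0.18.

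Transcripts that ERK signalling is known to induce were followed as a list of 16 genes, of which 15 were tested. They were called higher for 12 and lower for 2 in LPS, higher for 13 and lower for 1 in (GT)6 SWCNT, higher for 14 in COOH SWCNT, and lower for 9 in DiBASC2. Over all genes, 13.8% were called higher and 14.5% lower in LPS, and 9.90% and 10.5% in (GT)6 SWCNT. The shares higher and lower were 9.39% and 10.6% in COOH SWCNT and 1.82% and 3.64% in DiBASC2. The list's median log2 fold change was 1.06, 1.16, 0.77 and −0.34 in these treatments. Myc, a growth regulator, stood at 2.37 ± 0.0422 CPM in control and rose in LPS to 30.8 ± 0.755 CPM (log2 fold change 3.70 ± 0.14, adjusted p 1.82e-22). Phlda1 rose by 2.65 ± 0.10 (2.63e-22), while Etv5, a transcription factor that follows ERK activity in many cells, fell by 0.63 ± 0.06 (3.08e-11), and Fos fell by 0.62 ± 0.10 (8.44e-06). Egr3, an immediate-early transcription factor, rose from 32.02 ± 2.42 to 113 ± 5.54 CPM in (GT)6 SWCNT (1.82 ± 0.07, adjusted p 1.91e-21) and to 93.5 ± 8.86 CPM in COOH SWCNT (1.54 ± 0.07, adjusted p 3.12e-18). In DiBASC2, Fosl1 fell by 0.88 ± 0.13 (1.26e-05) and Egr3 by 0.83 ± 0.08 (8.1e-09). In Di-2-ANEPEQ, Fura-2 and AAV, 0 of the 15 were called by edgeR or DESeq2, with 2, 0 and 1 at an unadjusted p under 0.05. Like the members, these genes were listed with earlier results of these data known, so their counts describe them and test nothing.

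**Figure D4:**
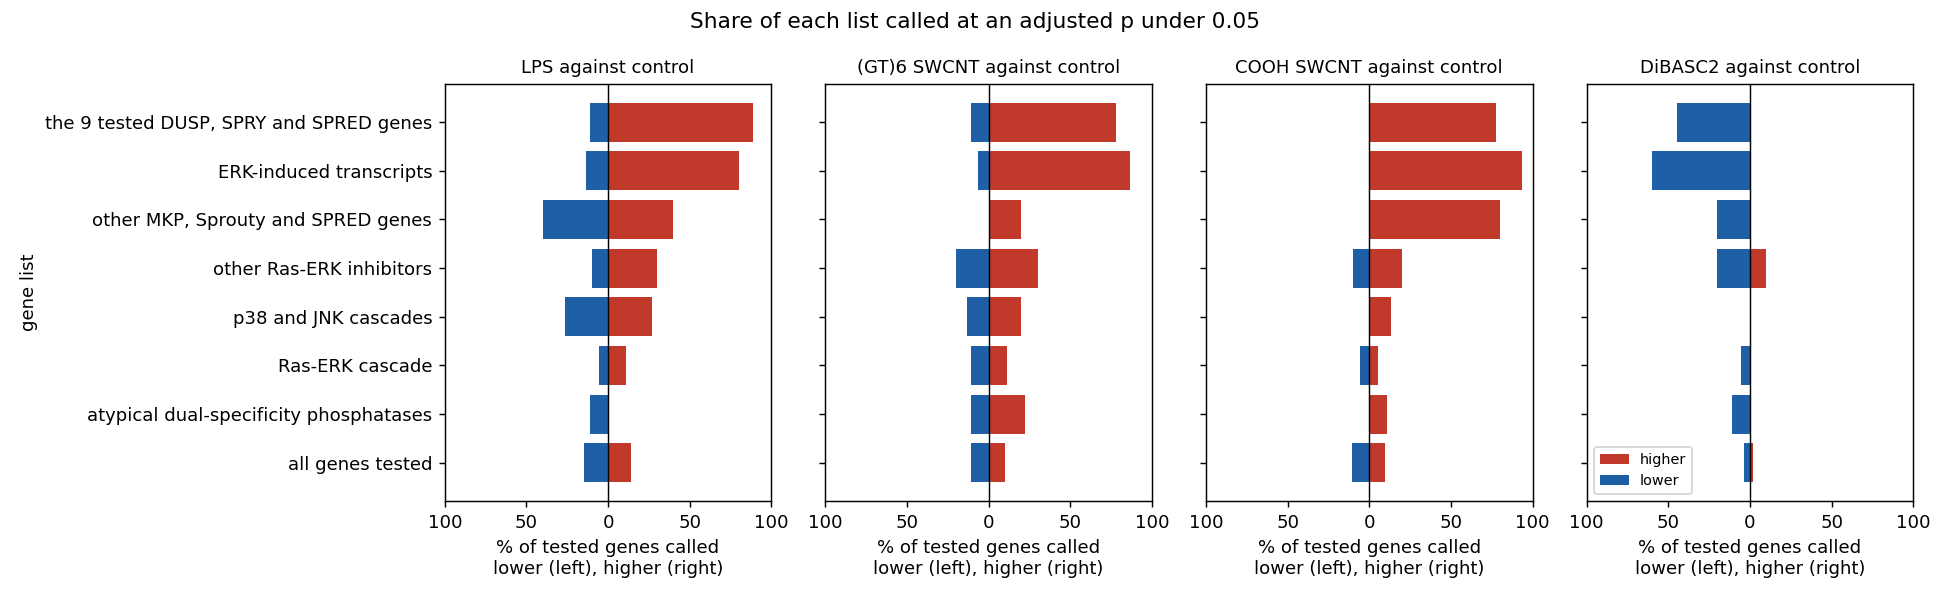
Share of the tested genes of each list called higher (red, to the right) or lower (blue, to the left) against control, in percent, for LPS, (GT)6 SWCNT, COOH SWCNT and DiBASC2, beside all genes tested. The ERK-induced transcripts and the 9 feedback genes stand above all genes in the higher direction for LPS and both nanotubes, and in the lower direction for DiBASC2.

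Transcripts of the kinase cascades were counted in the same way. Of 18 tested genes of the Ras-ERK cascade, LPS had 2 called higher and 1 lower (13.8% and 14.5% of all genes). (GT)6 SWCNT had 2 and 2 (9.90% and 10.5%), COOH SWCNT 1 and 1 (9.39% and 10.6%), and DiBASC2 had 1 lower (3.64%). Map3k8, the kinase also called Tpl2 that links LPS receptors to ERK, stood at 4.09 ± 0.213 CPM in control and rose in LPS to 17.1 ± 0.334 CPM (2.06 ± 0.12 on the log2 scale, adjusted p 1.93e-16). Ksr1, a scaffold for Raf, MEK and ERK, fell by 0.54 ± 0.08 in (GT)6 SWCNT (6.9e-07) and by 0.26 ± 0.07 in COOH SWCNT (0.00817). Of 15 tested genes of the p38 and JNK cascades, LPS had 4 called higher and 4 lower, beside the same shares of all genes. (GT)6 SWCNT had 3 and 2, COOH SWCNT 2 and 0, and DiBASC2 had 0 called by edgeR and 1 by DESeq2. Mapkapk2, a p38 substrate kinase, was at 0.53 ± 0.03 in LPS (2.45e-15) and 0.21 ± 0.03 in (GT)6 SWCNT (1.44e-05). Mapk14, which encodes p38 alpha, was at −0.37 ± 0.04 in LPS (5.77e-09) and −0.32 ± 0.04 in (GT)6 SWCNT (1.69e-07).

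Among 10 other inhibitors of Ras and ERK, Errfi1, which encodes an inhibitor of the EGF receptor, was called in 4 treatments. It rose from 27.9 ± 0.818 CPM in control to 70.3 ± 3.95 CPM in LPS (log2 fold change 1.34 ± 0.06, adjusted p 2.24e-21), 53.1 ± 0.716 CPM in (GT)6 SWCNT (0.93 ± 0.06, 7.17e-16) and 44.2 ± 0.343 CPM in COOH SWCNT (0.67 ± 0.06, 2.8e-11). In DiBASC2, Errfi1 fell by 0.21 ± 0.06 (0.0324). Rasa3, from the same list, moved the other way. It fell by 0.37 ± 0.05 in LPS (1.86e-07) and by 0.15 ± 0.05 in (GT)6 SWCNT (0.0221). In DiBASC2, Rasa3 rose by 0.20 ± 0.05 (0.00848), and in COOH SWCNT it was not called (−0.04, adjusted p 0.622). The list as a whole had 3 called higher and 1 lower in LPS, and 3 and 2 in (GT)6 SWCNT. With COOH SWCNT the counts were 2 and 1, and with DiBASC2 they were 1 and 2. Over all genes the shares called higher and lower were 13.8% and 14.5% in LPS and 9.90% and 10.5% in (GT)6 SWCNT. They were 9.39% and 10.6% in COOH SWCNT and 1.82% and 3.64% in DiBASC2, and they apply to every list in this paragraph. The 5 tested genes among the remaining MKP, Sprouty and SPRED genes had 2 higher and 2 lower in LPS, 1 higher with (GT)6 SWCNT, 4 higher with COOH SWCNT and 1 lower with DiBASC2. Spred2 fell by 0.22 ± 0.05 in LPS (0.000592), and Spred3 rose by 0.35 ± 0.11 in COOH SWCNT (0.0169). Of 9 tested atypical dual-specificity phosphatases, which lack the MAP kinase docking domain, 1 was called lower in LPS, 2 higher and 1 lower in (GT)6 SWCNT, 1 higher in COOH SWCNT and 1 lower in DiBASC2.

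Short-lived transcripts often carry the pentamer ATTTA in their 3′UTR, so its occurrence was counted in the longest annotated 3′UTR of each member. Dusp2 held 4 in 584 bases (6.85 per kilobase) and Dusp1 held 4 in 693 bases (5.77 per kilobase). The density was 2.77 for Spred1, 2.69 for Dusp10, 2.33 for Spry2, 1.90 for Spry1, 1.79 for Dusp4, 1.24 for Dusp16, 0.899 for Dusp5 and 0.838 for Dusp6. Over 11137 tested coding genes the median was 1.19 per kilobase. The overlapping nonamer ATTTATTTA was present in Dusp1, Dusp10 and Dusp16, and in 6.52% of those genes. These are counts of letters in the annotation, and no transcript half-life was measured.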

How the data were processed

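The authors deposited 1 table of whole-number read counts per gene for all 24 libraries. STAR 2.5.4b and GRCm38.p6 are named per the submitters' processing notes; the counting tool, strand setting and annotation release are not given in the sources used here. Sample titles gave each library's group and number, since the spelling of both dyes varies between labels. Of 54838 identifiers, 53947 matched GENCODE M21 with and 54809 without their version.

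The software was edgeR 4.0.16 and limma 3.58.1 under R 4.3.3. filterByExpr left 13116 genes. A quasi-likelihood model with TMM factors and a mean per group, fitted to all 24 libraries (16 residual degrees of freedom; biological coefficient of variation 4.12%) gave 11 contrasts, tested two-sided with Benjamini-Hochberg adjustment over all genes of a contrast, called at an adjusted p under 0.05. All adjusted p-values are from this test unless DESeq2 1.42.0 is named. The SE is the absolute log2 fold change divided by the square root of F. The fit was also run on counts simulated with the dispersions of these data, which checks the code and not the calls. The 24 pairs of replicates differed beyond sampling noise (chi-square per degree of freedom 2.43 to 18.9), so each counted once.

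Every member is named. From each pathway list the 2 highest and 2 lowest called genes of a treatment with a mean of at least 5 CPM could be named; Dusp9 and the ERK-selective and JNK or p38-selective classes were singled out after the values were seen. Members and lists were chosen with earlier results of these data known. Alternatives were other scaling factors, other filters, the replicate number as a block, a 2-group fit, DESeq2, a threshold of 0.01 and leaving out each library. Promoters are RefSeq windows on GRCm38.p6, matched for 9 of the 10 members (not Dusp4). For 1 member, 1 of the 2 genes most like it is not reported here.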

Additional observations from a re-analysis of the deposited data

How the results depend on the processing

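No called member result changed sign under any alternative run. In 29 cases a result that was not called changed sign, each with a reported log2 difference within 0.094 of 0. Of the member results under the alternatives, 1342 stayed on their side of the threshold, 27 lost their call and 6 gained one. The number of members called was within 1.5 times that reported under every alternative but one: in AAV against control it was 0 with edgeR and 1 with the DESeq2 Wald test (Spred1), and the cause was not tested. With 1 library left out in turn, members called ranged from 8 to 9 in LPS, 7 to 8 in (GT)6 SWCNT, 7 to 7 in COOH SWCNT and 4 to 4 with DiBASC2, and stayed at 0 to 0 with Di-2-ANEPEQ, Fura-2 and AAV. They ranged from 6 to 7 for (GT)6 SWCNT against LPS, 6 to 6 for COOH SWCNT against LPS, 4 to 6 between the nanotubes and 4 to 5 between the dyes.

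The replicate number as a block left every count of members called as reported, at 9 in LPS, 8 in (GT)6 SWCNT, 7 with COOH SWCNT and 4 with DiBASC2. Over all genes tested, the numbers gave no sign of pairing the libraries, which does not exclude a small effect or one in few genes. Deviations of same-numbered libraries correlated at a mean r of −0.0027 over 84 pairs, and 2 of 24 libraries correlated best with their own number. Depth limits Dusp10 and Spry1. The call of Dusp4 between (GT)6 SWCNT and LPS was also lost with upper-quartile factors (adjusted p 0.126), no filter (0.16), only those groups in the fit (0.0596) or a threshold of 0.01.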

Other observations

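The genes whose response over the 7 treatments lay closest to a member were found by the mean absolute difference of their log2 fold changes against control, among 9485 genes with a mean of at least 5 CPM. The treatments share the control libraries, and the values carry no test. For Dusp2 the closest was Ccl3, a chemokine gene, at a mean difference of 0.106, where the median candidate was at 0.834. Ccl3 had log2 fold changes of 2.33 in LPS, 1.74 in (GT)6 SWCNT, 0.90 with COOH SWCNT and −0.65 with DiBASC2. Traf1, an adaptor of TNF receptor signalling, came next at 0.142. For Dusp5 they were Osm, the cytokine oncostatin M (0.0959), and Itga5, an integrin subunit (0.105), with the median candidate at 0.667.

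For Dusp1 the closest gene was Zswim4 (0.153), with the median candidate at 0.699. For Dusp16 they were Lipg, an endothelial-type lipase (0.0589), and Agpat4 (0.0608), with the median at 0.367. For Dusp6 they were Cd300lb, an immune receptor (0.120), and Gpr146 (0.128), with the median at 0.419. Cd300lb had a log2 fold change of −2.22 in LPS and −0.26 in (GT)6 SWCNT, and Gpr146 of −1.62 and −0.42. Among the members themselves, Dusp4 and Spry2 lay closest (0.0931), and Dusp2 and Dusp6 lay farthest apart (1.18).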
